A study of Mus musculus with 26 samples.

Results

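The myosin light chains and their kinases were followed across muscle regeneration and myoblast differentiation as 10 genes, taken by symbol from the rows of both tables. The deposited values covered 53465 genes in muscle and 55487 genes in C2C12 cells, and each of the 10 symbols had its row in both. They were 5 essential light chains (Myl1, Myl3, Myl4, Myl6 and Myl6b), 3 regulatory light chains (Mylpf, Myl2 and Myl9) and 2 light chain kinases (Mylk2 and Mylk4). All 10 passed the filter on low values in muscle, and 8 passed it in C2C12 cells, where Myl2 and Myl3 did not.

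Each myosin heavy chain carries an essential and a regulatory light chain on its neck, the lever arm that swings during contraction. The regulatory chain is the substrate of calcium- and calmodulin-dependent light chain kinases, which in skeletal muscle adjust the force of contraction and in smooth muscle switch it on. Muscles choose among light chain genes by fibre type and stage: fast fibres use Myl1 and Mylpf, slow fibres and the heart ventricle use Myl3 and Myl2, embryonic muscle and the heart atrium use Myl4, and Myl6 and Myl9 serve smooth muscle and non-muscle cells.

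Muscle came from the tibialis anterior, a mainly fast muscle of the lower leg, of 6-week-old male C57BL/6J mice by the study's methods, injected with cardiotoxin (CTX), a snake venom toxin that destroys myofibres and leaves the stem cells to rebuild them. Libraries were made at day 0 and at days 1, 3, 5 and 10 after the injection, 2 per day, and whether the day 0 muscle was untouched or given saline was not settled by the sources used here. The cells were C2C12, an immortal mouse myoblast line. They were control cells, whose construct was not stated, or cells with lentiviral dCas9-KRAB and guide sequences against the Mettl3 promoter. The knockdown cells were selected with puromycin as stable lines. KRAB silences a promoter without cutting it, and Mettl3 encodes the methyltransferase that places N6-methyladenosine on mRNA. Libraries of each line were made in growth medium (GM) and after 3 days in low-serum differentiation medium (DM3), with 2 libraries per group. What separates the replicates (animals, cultures or only libraries) was not stated, so the p-values measure the spread between these libraries.

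Values are FPKM, read counts scaled for the exon length of the gene and by a factor per library. They were compared only within a table because the tables were scaled apart. The factor did not follow depth alone. In muscle, 1 read on a gene of 1 kb was worth 0.0803 FPKM in day 0 replicate 1, with 16780000 reads on genes. It was worth 0.0494 FPKM in day 3 replicate 2, with 14290000 reads on genes. Low FPKM values were whole multiples of the worth of 1 read, within a tolerance of 0.05, for 97.2% to 98.0% of such values in the muscle libraries, and the implied depth was 14170000 to 18820000 reads on genes in muscle and 14230000 to 29560000 in C2C12. Mettl3 was at 4.70 and 5.65 FPKM in control GM, 4.68 and 5.15 in control DM3, 0.331 and 0.118 in knockdown GM, and 0.148 and 0.0805 in knockdown DM3. The muscle libraries went against the stated sex: Xist, the RNA of the inactive X chromosome, was at 5.77 to 10.0 FPKM in 5 libraries (both of day 0, both of day 10 and day 3 replicate 2) and at no more than 0.152 in the other 5. The counts that rest on these libraries are given below with a term for them and without day 3 replicate 2.

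The promoters of 3 pairs of genes whose levels moved together, the fast chains, the slow chains and Myl4 with Myl6b, are shown with the transcription-factor motifs found in them. They are sequences before RefSeq starts of build GRCm38.p6, read 5′ to 3′ on the strand of the gene. Each is printed up to the first annotated exon base met within its window. The windows of Mylpf, Myl1 and Myl3 lie inside the annotated gene, after its first start at 127208890, 66945404 and 110741861. Capitals mark an E-box (CANNTG, bound by MyoD-family factors), a TATA element (TATAAA on either strand), a CArG box (bound by serum response factor) or a MEF2 site.
Mylpf, chr7:127211458-127211607, plus strand: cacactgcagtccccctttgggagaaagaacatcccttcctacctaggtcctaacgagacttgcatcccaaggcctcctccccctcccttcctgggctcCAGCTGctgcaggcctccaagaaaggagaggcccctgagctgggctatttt
Myl1, chr1:66945144-66945206, minus strand: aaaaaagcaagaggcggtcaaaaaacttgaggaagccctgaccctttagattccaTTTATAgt
Myl3, chr9:110763528-110763645, plus strand: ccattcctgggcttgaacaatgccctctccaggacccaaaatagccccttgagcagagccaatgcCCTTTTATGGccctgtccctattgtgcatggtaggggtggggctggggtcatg
Myl2, first start, chr5:122092574-122092723, plus strand: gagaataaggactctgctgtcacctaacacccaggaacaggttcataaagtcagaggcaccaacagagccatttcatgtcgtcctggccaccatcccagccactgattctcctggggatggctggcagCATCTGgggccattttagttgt
Myl2, second start, chr5:122093039-122093188, plus strand: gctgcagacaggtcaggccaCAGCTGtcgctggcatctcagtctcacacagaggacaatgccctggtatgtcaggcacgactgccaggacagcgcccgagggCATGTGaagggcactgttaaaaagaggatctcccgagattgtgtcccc
Myl4, chr11:104550513-104550662, plus strand: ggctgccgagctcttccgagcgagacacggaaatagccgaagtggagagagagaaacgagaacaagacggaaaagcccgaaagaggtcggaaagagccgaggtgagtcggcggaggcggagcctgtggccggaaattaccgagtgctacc
Myl6b, chr10:128498686-128498835, minus strand: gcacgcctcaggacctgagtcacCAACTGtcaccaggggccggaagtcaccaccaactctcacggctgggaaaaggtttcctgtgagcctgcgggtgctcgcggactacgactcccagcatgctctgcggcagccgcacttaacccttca

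Motifs were searched in the 250 bases before each RefSeq start, and the printed part lies within the last 150 of them. The Mylpf window had a single E-box, CAGCTG, ending 45 bases before the RefSeq start. This hexamer was found in 13.0% of the 32851 mouse promoters searched over the same 250 bases. The general form CANNTG stood in 66.2% of them. Myl1 had the same hexamer 218 bases before its RefSeq start, outside the printed part, and the TATA element 89 bases before it (TATAAA: 12.4% of promoters). Myl3 had a CArG box 75 bases before its start, a motif in 1.47% of promoters, and an E-box 183 bases before it, outside the printed part. A CArG box was also found 151 bases before the start of Myl9 and 40 bases before 1 start of Myl6, in windows not printed. Of the 2 Myl2 starts, the first had 1 E-box, 16 bases before it. The second had CAGCTG at 124 bases, a further E-box at 42 and a TATA element at 210, the last outside the printed part. Both starts, at 122092724 and 122093189, lie before the annotated gene start of Myl2 at 122100951. The bases just before that gene start were not searched. Myl4 and Myl6b, whose levels ran together below, shared none of these motifs: no match was found in the 250 bases of Myl4, and Myl6b had 1 E-box, CAACTG, 121 bases before its start. A match is a run of letters and not a measured binding site.

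In day 0 muscle the fast chains made up nearly all of the FPKM of the 8 light chain genes. Mylpf, the fast regulatory chain, was at 7181 and 7081 FPKM and Myl1, the fast essential chain, at 4250 and 5071 on day 0. Mylpf held 98.99% ± 0.31 (SD, n = 2) of the FPKM of the 3 regulatory genes, and Myl1 held 96.6% ± 1.31 of that of the 5 essential genes. Among these genes the slow chains came next, with 2.40% ± 1.31 for Myl3 and 0.66% ± 0.36 for Myl2. Myl12a, a non-muscle regulatory chain outside the 3, was at 73.2 and 94.3 FPKM, above Myl2. Summed over their classes, essential chains were at 0.602 and 0.740 FPKM per FPKM of regulatory chains, and this ratio stayed between 0.521 and 0.740 in all 10 muscle libraries.

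**Figure D1:**
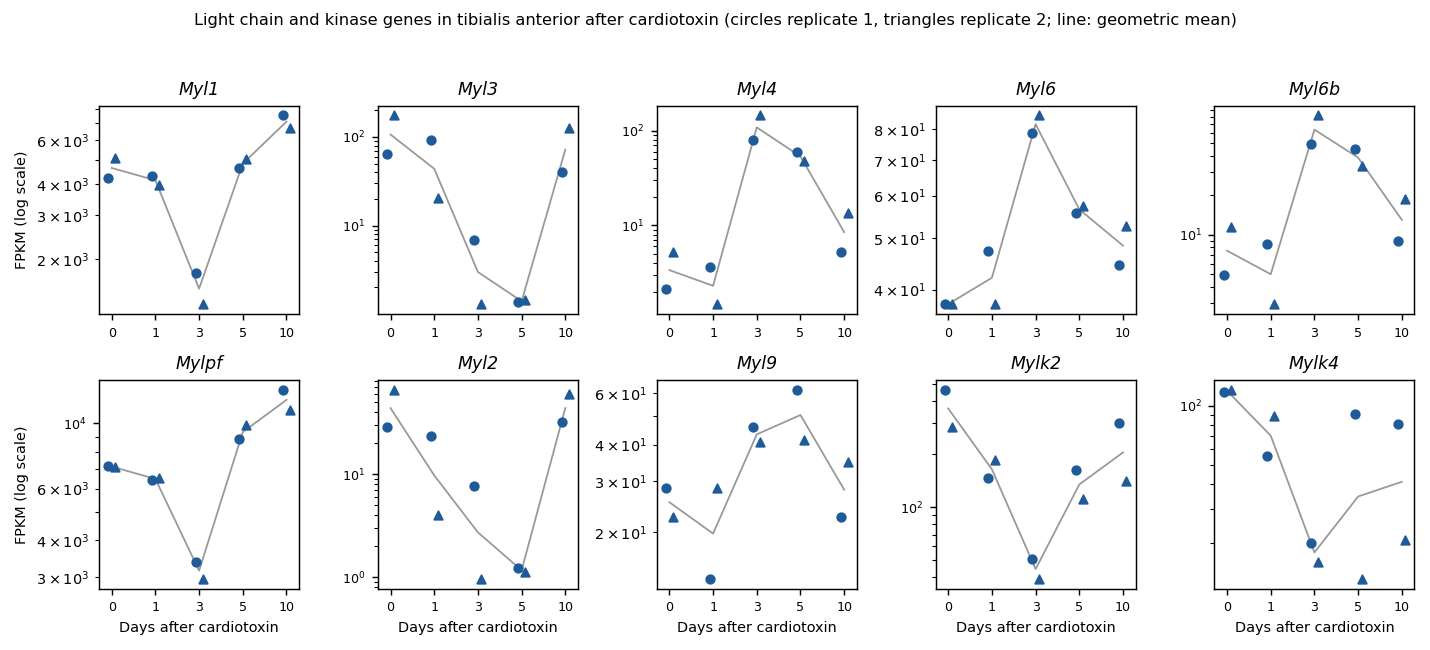
FPKM of the 10 genes on a log axis whose range differs between panels, against days after cardiotoxin (days evenly spaced); circles are replicate 1, triangles replicate 2, and the line joins the geometric means of the 2 libraries. Myl1, Mylpf and Mylk2 have their lowest values on day 3 and Myl4, Myl6 and Myl6b their highest; under quantile normalization the day 3 change of Myl1 and Mylpf against day 0 turns positive.

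On day 1, with fibres injured, none of the 10 genes passed the test. Myl1 was at 4318 and 3984 FPKM and Mylpf at 6401 and 6546. In the limma fit over all 16753 genes tested, no member passed an adjusted p of 0.05 against day 0, where 6% of all genes (1005) did. Of the 16753 genes 4493 had an unadjusted p under 0.05, among them 1 member. That member was Mylk2, the skeletal muscle light chain kinase, at 465 and 285 FPKM on day 0 and 146 and 185 on day 1 (log2 fold change -1.15 ± 0.40 SE, adjusted p = 0.12). The groups did not overlap for 4 members, Mylk2, Mylk4, Myl2 and Mylpf, where 52.4% of all genes tested were free of overlap. The log2 fold changes of the other 9 ran from -2.15 ± 1.05 for Myl2 to 0.16 ± 0.15 for Myl6, and that of Mylpf (-0.14 ± 0.24) turned to 0.46 under quantile normalization. Of the markers measured beside them, the 5 macrophage genes summed to 17.0 to 32.7 FPKM on day 0 and 106 to 110.3 on day 1.

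Most of the 10 genes moved by day 3. Against day 0, 9 of the 10 genes passed the test, 3 higher and 6 lower, where 48.8% of all genes passed, 24.5% higher and 24.3% lower. The median log2 fold change was -1.39 over the members and 0.01 over all genes. The higher ones were the embryonic chain Myl4 and the Myl6 and Myl6b chains, and the lower ones were the slow fibre chains, both kinases and the fast chains, of which the last turned direction under quantile normalization. Without day 3 replicate 2 the count was 7, as it was without day 0 replicate 2, and with a term for the libraries with Xist it was 8.

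Myl4, which serves embryonic muscle, had the largest rise of the 10. It stood at 2.15 and 5.30 FPKM on day 0, 3.63 and 1.46 on day 1, 80.8 and 146 on day 3, 59.9 and 48.0 on day 5, and then 5.28 and 13.7 on day 10. Every library of days 3 and 5 lay above every library of the other days. The rise from day 0 to day 3 was 4.97 ± 0.63 (SE) on the log2 scale of FPKM plus 0.1 (adjusted p = 8.1e-04), and from day 1 to day 3 it was 5.50 ± 0.63 (adjusted p = 0.0025). Its share of the essential chains was 0.07% ± 0.04 on day 0 and 6.51% ± 3.45 on day 3 (13.1% when counted as reads and not per length), 1.09% ± 0.22 on day 5 and 0.13% ± 0.09 on day 10.

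Myl6b, an essential chain of slow and non-muscle myosins, followed the same course at a lower height. It was at 4.95 and 11.5 FPKM on day 0, 8.51 and 2.93 on day 1, 49.5 and 82.4 on day 3, 45.2 and 33.7 on day 5, and then 9.02 and 18.8 on day 10. It rose by 3.06 ± 0.61 (log2) from day 0 to day 3 (adjusted p = 0.0050), and its share of the essential chains was 3.77% ± 1.80 on day 3 against 0.17% ± 0.07 on day 0. Over the 10 muscle libraries the gene most like Myl4 in log2 FPKM was Myl6b (Pearson r = 0.99, a description over libraries of the same time course), followed by Adam19 and Nt5c2. Next to Myl4, the genes most like Myl6b were Ripply1 and Tnni1.

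Myl6, the smooth muscle and non-muscle essential chain, had the smallest fold change of the 9. It stood at 37.6 and 37.5 FPKM on day 0, 47.2 and 37.5 on day 1, 78.5 and 84.8 on day 3, 55.7 and 57.3 on day 5, and then 44.5 and 52.6 on day 10. The rise to day 3 was 1.12 ± 0.15 (log2, adjusted p = 9.7e-04), with both libraries of day 3 above all 8 others. Together Myl4, Myl6 and Myl6b held 14.9% ± 6.11 of the essential light chain FPKM on day 3 against 1.03% and 1.02% in the day 0 libraries.

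Myl9, the smooth muscle regulatory chain, did not pass the test between any of the days compared. It was at 28.5 and 22.6 FPKM on day 0, 13.8 and 28.4 on day 1, 45.9 and 41.0 on day 3, 61.7 and 41.4 on day 5, and then 22.5 and 34.9 on day 10. Day 3 lay above day 0 without overlap (log2 fold change 0.77 ± 0.37, adjusted p = 0.12), and 77.9% of all genes tested were free of overlap in that comparison. Under quantile normalization, and with only the libraries of days 0 and 3 in the fit, the adjusted p values were 0.039 and 0.030. The 5 smooth muscle and pericyte markers summed to 97.7 to 102 FPKM on day 0 and 357 to 433 on day 3, and by the test 2 rose and Myh11 fell. The rise of the sum was that of Acta2, from 23.3 and 27.8 FPKM to 289 and 378, since the other 4 summed to 74.4 to 74.6 FPKM on day 0 and 55.5 to 68.1 on day 3, and the median log2 fold change of the 5 was -0.23. Their part in the Myl9 values was not tested.

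The fast chains had their lowest FPKM on day 3. Myl1 was at 1767 and 1320 FPKM on day 3, a fall from day 0 of 1.60 ± 0.24 on the log2 scale (adjusted p = 0.0016) that became a rise of 0.65 under quantile normalization. Mylpf was at 3372 and 2956 FPKM on day 3, with a log2 fold change of -1.18 ± 0.24 (adjusted p = 0.0060) that became 0.64 under the same setting. By rank among all listed genes, from 1 for the most abundant, Myl1 stood at 28 and 21 in the day 0 libraries and at 16 in both of day 3, and Mylpf at 19 and 14 and then at 10 in both, so that their ranks rose while their FPKM fell. Quantile normalization also moved the median log2 fold change of all genes in this comparison from 0.01 to -0.12. As implied reads, without the library factor, Mylpf had 95007 and 100410 on day 0 and 70692 and 63514 on day 3. Myl1 had 109800 and 140430, and then 72336 and 55371. All reads on genes were 16780000 and 16150000 on day 0 and 14330000 and 14290000 on day 3. The size of these falls therefore depends on the scaling. The 5 mature fast fibre markers summed to 50254 to 58093 FPKM on day 0 and 12273 to 15562 on day 3, while the 5 macrophage markers summed to 509 to 539 on day 3. In whole muscle, fewer fibres and less RNA per fibre cannot be told apart.

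Both fast chains then came back above their day 3 level. Myl1 was at 4649 and 5028 FPKM on day 5 and 7554 and 6708 on day 10. Mylpf was at 8847 and 9870 on day 5 and 13008 and 11103 on day 10. From day 3 to day 5 Myl1 rose by 1.66 ± 0.24 (log2, adjusted p = 0.0085) and Mylpf by 1.57 ± 0.24 (adjusted p = 0.010), and with Mylk2 they were the 3 members that passed the test there, where 12.7% of all genes did and 7.23% were higher. With the Xist term no member passed it, where 0 of all 16753 genes did. The calls of members were also lost without day 3 replicate 2 or either day 5 library, as were most or all calls over all genes. Not all 3 were kept without day 3 replicate 1. Over single libraries left out, the rise of Myl1 ran from 1.45 to 1.87. That of Mylpf ran from 1.47 to 1.66 and that of Mylk2 from 1.32 to 1.87. The other 7 had log2 fold changes from -1.18 ± 1.05 for Myl2 to 0.94 ± 0.89 for Mylk4. By quantile normalization the day 5 rises were 0.16 for Myl1 and 0.40 for Mylpf, neither passing the test.

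**Figure D2:**
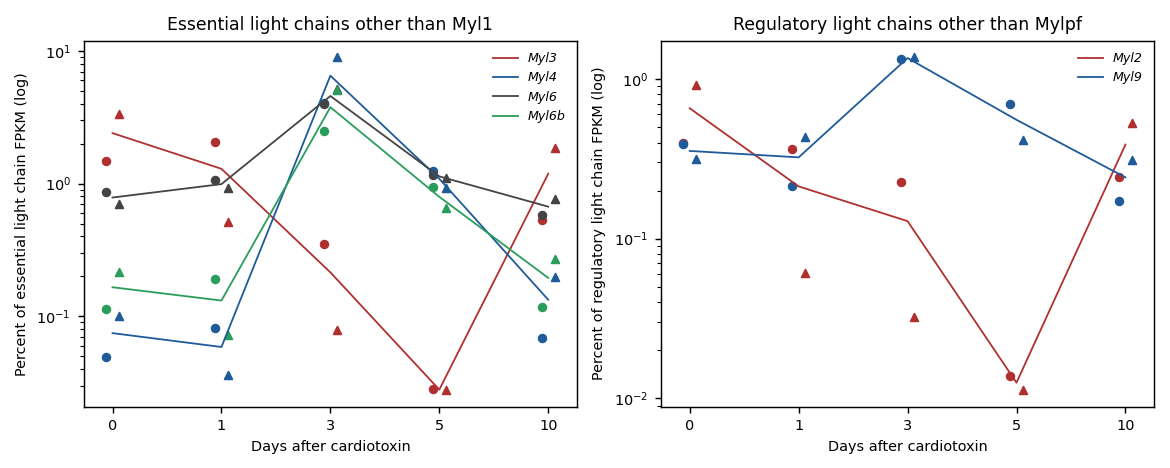
Percent of the summed FPKM of the essential chains (left) and regulatory chains (right) held by the genes other than Myl1 and Mylpf, on a log axis, against days after cardiotoxin; circles and triangles are the 2 libraries of a day and lines join their means. Myl4 goes from 0.07% on day 0 to 6.51% on day 3, and Myl3 falls to 0.03% on day 5.

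The slow chains Myl3 and Myl2 fell and stayed low through day 5. Myl3 was at 64.4 and 176 FPKM on day 0, 92.7 and 20.7 on day 1, 6.94 and 1.28 on day 3, 1.35 and 1.44 on day 5, and then 40.5 and 128 on day 10. Myl2 was at 28.9 and 65.4 on day 0, 23.4 and 4.02 on day 1, 7.72 and 0.963 on day 3, 1.23 and 1.12 on day 5, and then 31.7 and 59.8 on day 10. Their replicates were far apart on every day but day 5, up to 8.01-fold for Myl2 on day 3, and in step: the same library was the higher for both genes on days 0, 1, 3 and 10. From day 0 to day 3 Myl3 fell by 5.10 ± 1.00 (log2, adjusted p = 0.0047) and Myl2 by 3.92 ± 1.05 (adjusted p = 0.017). Myl2 no longer passed without day 0 replicate 2 or without day 3 replicate 2. From day 3 to day 10 they rose by 4.53 ± 1.00 (adjusted p = 0.010) and 3.92 ± 1.05 (adjusted p = 0.023).

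Myl3 and Myl2 were each other's nearest gene over the muscle libraries (r = 0.96). Genes of slow fibres went different ways: of the 6 slow fibre markers 3 rose and 1 fell by day 3. Myh7, the slow heavy chain, was low between days 0 and 10 as these chains were, going from 10.6 and 21.8 FPKM to 0.511 and 1.62 on day 1, 3.95 and 2.15 on day 3, 0.456 and 0.665 on day 5, and back to 8.06 and 9.20 on day 10. Tnni1, the slow troponin I, went from 4.86 and 21.3 FPKM on day 0 to 118 and 187 on day 3. Atrial and ventricular markers of heart stayed low, at 0.781 to 1.72 FPKM summed over 5 genes in all muscle libraries. Myl3 shares 95 exon bases with Pth1r on the other strand, and the strand setting of the counting was not stated; Pth1r was at 1.91 and 3.68 FPKM on day 3 and 1.47 and 1.32 on day 5, against 1.28 to 6.94 for Myl3 itself on those days.

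Both kinases fell by day 3. Mylk2 was at 50.9 and 39.1 FPKM on day 3, 163 and 111 on day 5, and then 299 and 140 on day 10, and the fall from day 0 to day 3 was 3.03 ± 0.40 (log2, adjusted p = 9.4e-04). Mylk2 kept this call under quantile normalization and with each library left out. Mylk4, a less studied kinase of the family, was at 118 and 120 FPKM on day 0, 55.7 and 88.9 on day 1, and day 3 had 20.0 and 16.2 FPKM, a fall from day 0 of 2.72 ± 0.89 (adjusted p = 0.037) that lost its call without any 1 of the libraries of days 0, 1 or 3. Its replicates then parted, with 90.8 and 13.2 FPKM on day 5 and 81.1 and 20.8 on day 10. No comparison of these days passed the test for Mylk4. The ratio of Mylk2 to Mylk4 lay between 2.09 and 3.95 on days 0, 1 and 3, and was 1.80 and 8.45 on day 5 and 3.69 and 6.76 on day 10.

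Set against day 1 in place of day 0, day 3 gave 7 members past the test, 3 higher and 4 lower, where 31.1% of all genes passed, 14.5% higher and 16.6% lower. These were Myl4, Myl6b and Myl6 among the higher and Myl3, Mylk2, Myl1 and Mylpf among the lower, the last pair not so under quantile normalization. The count was 2 without day 3 replicate 2, and 2 with the Xist term. For Myl1 (-1.44 ± 0.24) and Mylpf (-1.04 ± 0.24) the direction turned under quantile normalization, to 0.38 and 0.18. The 3 that did not pass were Myl9 (1.13 ± 0.37, adjusted p = 0.052), Mylk4 (-1.96 ± 0.89) and Myl2 (-1.77 ± 1.05).

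From day 3 to day 10 most of these genes moved the other way. Against day 3, 8 members passed, 5 higher and 3 lower, where 37.9% of all genes passed, 19.1% higher and 18.8% lower; the count was 5 without day 3 replicate 2 and 7 with the Xist term. Myl1 rose by 2.22 ± 0.24, Mylpf by 1.93 ± 0.24 and Mylk2 by 2.20 ± 0.40 (log2, adjusted p = 8.1e-04, 0.0013 and 0.0050). Myl4 fell by 3.66 ± 0.63 (adjusted p = 0.0040), Myl6b by 2.29 ± 0.61 and Myl6 by 0.75 ± 0.15. Myl9 (-0.63 ± 0.37) and Mylk4 (1.19 ± 0.89) did not pass. Under quantile normalization Myl1 rose by 0.16 and Mylpf by 0.57, and neither passed.

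Against day 0, no member passed on day 10 in limma, where 0.00597% of all genes did. Of 16753 genes 1697 had an unadjusted p under 0.05, among them 3 members. These were Mylpf (0.75 ± 0.24), Myl1 (0.62 ± 0.24) and Myl6 (0.36 ± 0.15), each higher on day 10 in both libraries, with adjusted p values of 0.42, 0.46 and 0.47. Mylk4 (-1.53 ± 0.89) lay lower without overlap, as 39.6% of all genes tested were without overlap there. The other 6 had log2 fold changes from -0.83 ± 0.40 for Mylk2 to 1.31 ± 0.63 for Myl4. A p that misses the threshold does not show that the muscle had returned to its day 0 state.

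The other genes of light chain biology, 23 in all with 21 tested, were measured beside the members, among them further chains, the kinase Mylk, myosin phosphatase and its inhibitors, and calmodulins. By day 3, 6 rose and 6 fell against day 0. Ppp1r14b, an inhibitor of the phosphatase, had the largest rise, from 36.9 and 36.8 FPKM to 141 and 141, and Myl10, a further regulatory chain, the largest fall, from 8.14 and 2.30 to 1.05 and 0.740. Ppp1r14b was the single gene of this list that passed on day 1 (161 and 84.9 FPKM). On day 10 against day 3, 3 rose and 7 fell, with Ppp1r12b, a targeting subunit of the phosphatase found in striated muscle, highest among the rises at 1.81 ± 0.23 (log2). None passed between days 0 and 10, with 2 at an unadjusted p under 0.05, where 1697 of 16753 genes were.

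The heavy chains that the light chains bind were listed as partners. Of the 6 sarcomeric heavy chains 2 rose and 4 fell by day 3. The embryonic chain Myh3 went from 3.91 and 8.57 FPKM on day 0 to 398 and 733 on day 3, 170 and 121 on day 5, and then 11.8 and 26.5 on day 10. As with Myl4, its day 3 and day 5 libraries lay above all others.

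In C2C12 cells the essential chains were mostly those of non-muscle myosin. Myl6 was at 144 and 488 FPKM in control GM, 179 and 256 in control DM3, 148 and 244 in knockdown GM and 163 and 218 in knockdown DM3, and the groups overlapped in each of the 4 comparisons between them. It held 93.0% ± 7.48 of the essential chain FPKM in control GM, 70.5% ± 2.61 in control DM3, 93.3% ± 6.19 in knockdown GM and 95.8% ± 0.04 in knockdown DM3. In the control DM3 libraries the rest was Myl1, at 17.4% ± 1.85, Myl6b, at 7.85% ± 0.74, and Myl4, at 4.24% ± 0.04.

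**Figure D3:**
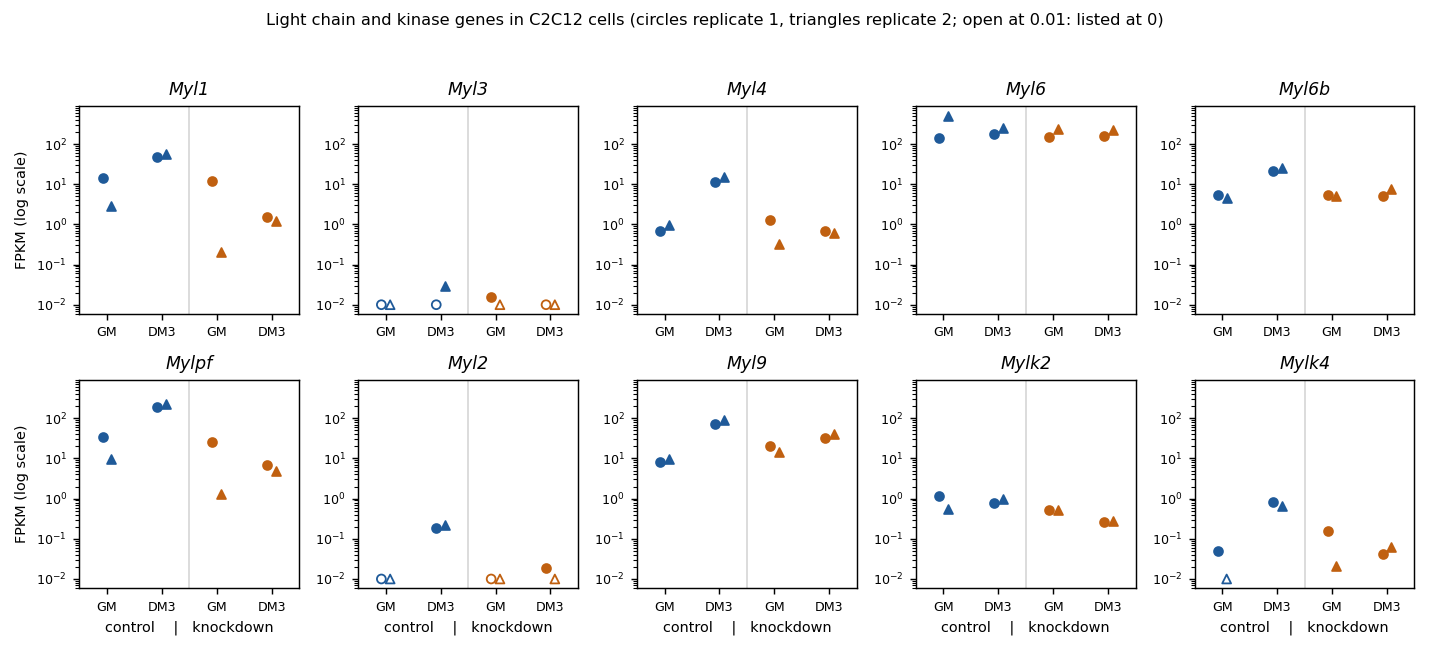
FPKM of the 10 genes in C2C12 cells on a common log axis, control in blue and Mettl3 knockdown in orange, in growth medium (GM) and after 3 days of differentiation (DM3); circles are replicate 1, triangles replicate 2, and open symbols at 0.01 stand for libraries listed at 0. Myl1, Mylpf, Myl4 and Myl9 are higher in control DM3 than in control GM in every library, and the GM replicates of Myl1 and Mylpf lie far apart.

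In control cells the embryonic chain Myl4, the smooth muscle chain Myl9 and Myl6b rose with differentiation. Against GM, 3 of the 8 members tested passed, all higher, where 1.14% of all 13824 genes passed and 0.767% were higher. Myl4 went from 0.692 and 0.983 FPKM to 11.1 and 14.9, a rise of 3.81 ± 0.56 on the log2 scale (adjusted p = 0.044). Myl9 went from 8.07 and 9.98 to 73.9 and 89.0, a rise of 3.16 ± 0.26 (adjusted p = 0.021). Myl6b went from 5.35 and 4.60 to 21.9 and 25.9, a rise of 2.24 ± 0.24 (adjusted p = 0.024). When only the control libraries entered the fit no member passed, where 0 of all 13824 genes did. All calls of this comparison, not only those of members, were also lost without any 1 of the 4 DM3 libraries, of either line. Over single libraries left out, the rise of Myl4 ran from 3.58 to 4.03. That of Myl9 ran from 3.01 to 3.31 and that of Myl6b from 2.12 to 2.36.

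The fast chains had the higher levels at DM3 but did not pass. Mylpf was at 34.0 and 9.65 FPKM in control GM and 187 and 234 in control DM3 (log2 fold change 3.52 ± 1.30, adjusted p = 0.24). Myl1 was at 14.1 and 2.80 and at 49.0 and 57.0 (3.04 ± 1.62, adjusted p = 0.35). In both genes replicate 1 of GM stood well above replicate 2, and so did the 5 mature fast fibre markers, with sums from 13.4 to 117 FPKM. Mylf-ps, a light chain pseudogene, was among the 3 genes most like Myl1 in muscle and in C2C12, and most like Mylpf in muscle. Its level in control DM3 was 39.2 and 43.4 FPKM. Reads may be shared between the fast chain genes and this copy, which was not tested.

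The slow chains were barely present. Myl2 was listed at 0 in both GM libraries of each line and at 0.187 and 0.216 FPKM in control DM3, worth 10 and 7 reads, and in knockdown DM3 at 0.0184 and 0. Myl3 was worth 1 read in 2 of the 8 libraries and listed at 0 in the other 6. The kinases were low as well: Mylk2 was at 1.15 and 0.561 FPKM in control GM and 0.779 and 0.998 in control DM3, and Mylk4 at 0.0490 and 0 and at 0.829 and 0.671 (log2 fold change 2.79 ± 0.65, adjusted p = 0.11).

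**Figure D4:**
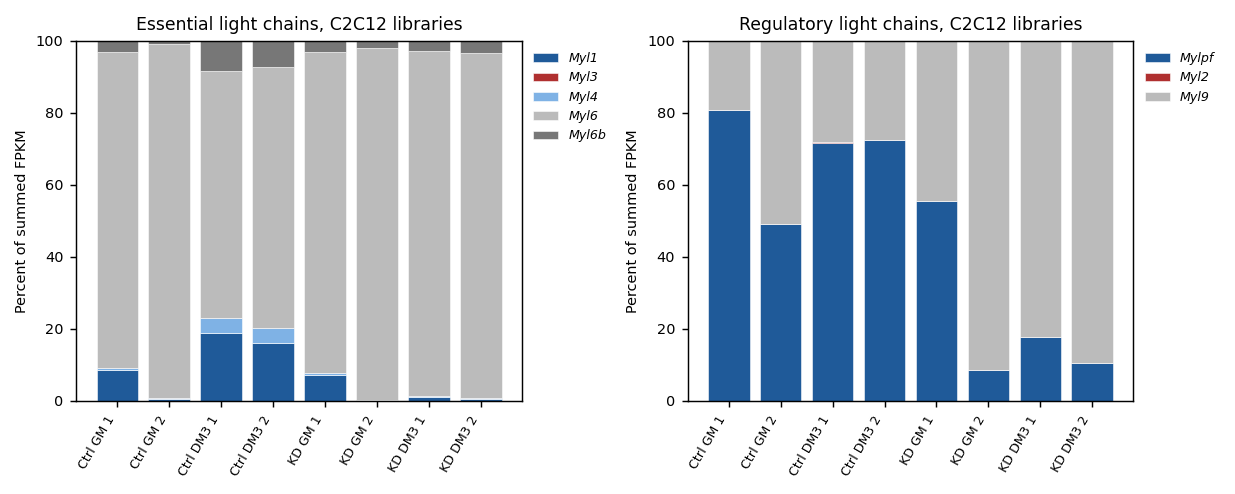
Stacked bars of the percent of summed FPKM held by each essential chain (left) and each regulatory chain (right) in the 8 C2C12 libraries, control (Ctrl) and Mettl3 knockdown (KD), with the replicate number after the group. Mylpf holds 71.7% and 72.4% of the regulatory chains in control DM3 and 17.7% and 10.5% in knockdown DM3.

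At DM3 the mean of every tested member was lower in the knockdown cells, and 2 of 8 passed the test, both lower, where 1.98% of all genes passed and 0.687% were lower. Myl4 was at 0.665 and 0.617 FPKM against 11.1 and 14.9 in the control, a fall of 4.13 ± 0.56 (log2, adjusted p = 0.030). Myl6b was at 4.99 and 7.67 against 21.9 and 25.9, a fall of 1.93 ± 0.24 (adjusted p = 0.026). Mettl3 itself was lower by 4.56 ± 0.40 (adjusted p = 0.019). All calls of this comparison, those of Myl4, Myl6b and Mettl3 among them, were lost without any 1 of the 4 DM3 libraries. Over single libraries left out, the log2 fold change of Myl4 ran from -4.34 to -3.92 and that of Myl6b from -2.23 to -1.62. The groups overlapped for Myl6 alone of the 8, where 63.5% of all genes tested were free of overlap, and its log2 fold change of -0.19 ± 0.60 turned to 0.070 without control DM3 replicate 2.

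The fast chains had the widest distance at DM3 and the widest error. Myl1 was at 1.56 and 1.21 FPKM in knockdown DM3 (log2 fold change -5.16 ± 1.62, adjusted p = 0.17) and Mylpf at 6.82 and 4.87 (-5.16 ± 1.30, adjusted p = 0.11). All 8 libraries share the estimate of spread, and in knockdown GM Myl1 was at 11.7 and 0.210 FPKM and Mylpf at 26.1 and 1.33. With only the 4 DM3 libraries in the fit, 7 of the 8 members passed, where 19.1% of all genes did, Myl1 with an adjusted p of 0.0016 and Mylpf with 0.0020, and without either knockdown GM library 4 passed. Mylk4 (-2.48 ± 0.65), Mylk2 (-1.42 ± 0.42) and Myl9 (-1.16 ± 0.26) did not pass in the fit of all 8 libraries, with adjusted p values of 0.12, 0.15 and 0.086.

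**Figure D5:**
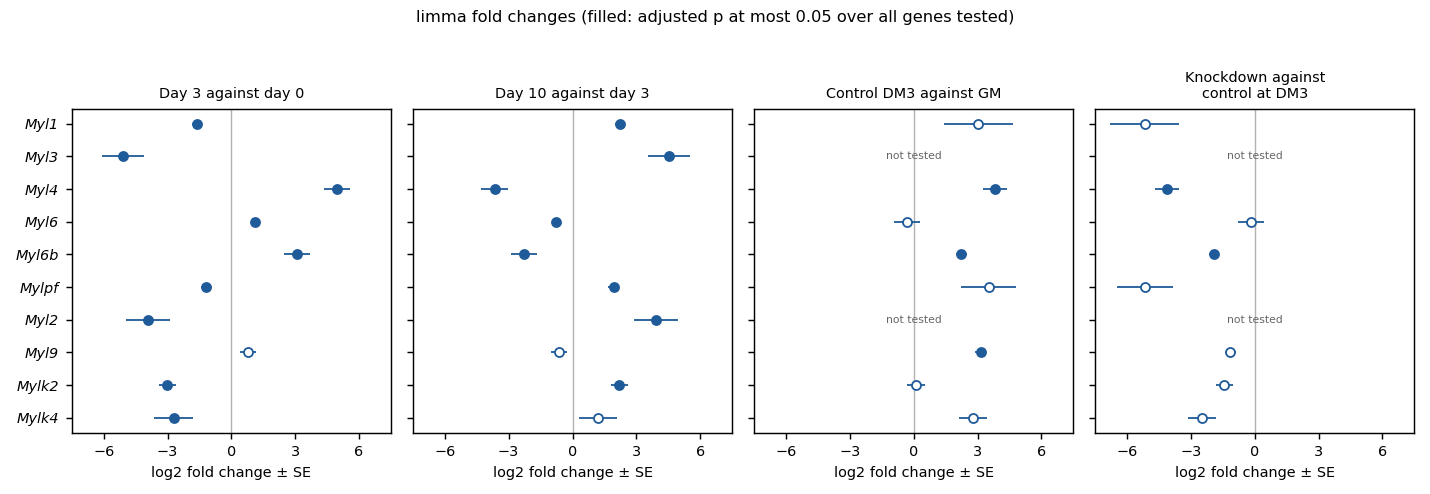
Log2 fold changes of FPKM plus 0.1 with their standard errors in 4 comparisons of 2 against 2 libraries; filled points have an adjusted p of at most 0.05 over all genes tested. Under quantile normalization the day 3 points of Myl1 and Mylpf move from -1.60 and -1.18 to 0.65 and 0.64, and Myl1 and Mylpf at DM3 lie at -5.16 with open points.

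In the knockdown line itself, DM3 against GM gave no member past the test in limma, where 0.0289% of all genes passed. Of 13824 genes 1748 had an unadjusted p under 0.05, among them 1 member. That 1 was Myl9, at 21.0 and 14.5 FPKM in knockdown GM and 31.7 and 41.5 in knockdown DM3 (1.05 ± 0.26, adjusted p = 0.17). Myl4 was at 1.30 and 0.317 in knockdown GM, and the log2 fold changes of the 7 members other than Myl9 ran from -0.76 ± 0.42 for Mylk2 to 0.23 ± 0.24 for Myl6b. The log2 fold changes of Myl1 and Mylpf in this line ran from -3.00 to 2.25 and from -2.16 to 2.03 according to which knockdown GM library was left out, so no direction can be given.

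In GM, knockdown against control gave no member past the test, where 0% of all genes passed, although Mettl3 was lower by 4.10 ± 0.40 (adjusted p = 0.19). Of 13824 genes 1244 had an unadjusted p under 0.05, among them 1 member, Myl9 (0.95 ± 0.26, adjusted p = 0.41). The other 7 had log2 fold changes from -1.75 ± 1.62 for Myl1 to 0.52 ± 0.65 for Mylk4, with Mylk2 at -0.55 ± 0.42. The change from GM to DM3 did not pass as different between the lines for any member, as 0% of all genes did. At an unadjusted p under 0.05 there were 1198 of 13824 genes, among them 4 members. They were Myl4 (difference of log2 fold changes -3.85 ± 0.80), Mylk4 (-3.00 ± 0.92), Myl9 (-2.11 ± 0.37) and Myl6b (-2.01 ± 0.35), with adjusted p values of 0.27 to 0.44. The other 4 ran from -3.58 ± 1.84 for Mylpf to 0.30 ± 0.84 for Myl6.

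The regulatory chains of the 2 lines had separate shares at DM3 and overlapping shares in GM. Myl9 held 27.9% ± 0.49 of the regulatory chain FPKM in control DM3 and 85.9% ± 5.12 in knockdown DM3, and in GM it held 19.2% and 50.8% in the control libraries and 44.6% and 91.6% in the knockdown libraries. An exact permutation test of 2 against 2 libraries cannot give a two-sided p under 0.333, so the shares are given without a test. Among the sarcomeric essential chains alone (Myl1, Myl3 and Myl4), Myl4 held 19.6% ± 1.52 in control DM3 and 31.8% ± 2.64 in knockdown DM3, of sums that differed in size: all sarcomeric chains together came to 248 and 306 FPKM in control DM3 and 9.06 and 6.70 in knockdown DM3. Essential chains were at 1.00 and 1.09 FPKM per FPKM of regulatory chains in control DM3 and at 4.41 and 4.90 in knockdown DM3. The regulatory sum held only Mylpf, Myl2 and Myl9, and the further chains Myl12a and Myl12b were left out. The ratio and the Myl9 shares therefore depend on which genes were counted.

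Of the other light chain genes tested in C2C12, none of 21 passed in the comparisons of DM3 with GM or of knockdown with control in limma. In each, 2 to 4 were at an unadjusted p under 0.05, where 1244 to 2520 of 13824 genes were. Myh3 was at 39.3 and 21.0 FPKM in control DM3 and 0.272 and 0.180 in knockdown DM3 without passing. The genes most like Mylpf over the 8 C2C12 libraries were Trim55, Tnni1 and Mb, those most like Myl4 were R3hdml, Popdc3 and Stac3, and those most like Myl9 were Nkd2, Sox8 and Zfp651.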

How the data were processed

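RNA-seq was made from tibialis anterior muscle and C2C12 cells with a SMARTER mRNA kit, and 18 libraries with deposited values were used; overexpression libraries of the series were not analysed here. The authors aligned reads with HISAT2 to GRCm38, counted them with featureCounts and computed the deposited FPKM values with DESeq2; tool versions and the strand setting were not given in the sources used here. No column of per-sample values was left unused. Gene lengths and positions came from GENCODE M21 and promoters from RefSeq.

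Genes with at least 0.5 FPKM in 2 libraries were tested with limma 3.58.1 (R 4.3.3), as log2(FPKM + 0.1) with 1 fit per table, a trend of the variance on mean level and Benjamini-Hochberg adjustment over all genes tested; FPKM are not counts, so no count test was run, and the pseudocount understates the change of low genes. A call is an adjusted p of at most 0.05. All 10 genes enter every comparison where they were tested, by their values or by the range of those that did not pass; of the other light chain genes, those with the largest called rise and fall; of like genes, the 3 with the highest Pearson r. Other scalings, pseudocounts, filters, a replicate block and leaving out libraries were tried. Members and lists were chosen with earlier results of these data known. The fit was tested on simulated data first. In C2C12, deviations of same-numbered libraries correlated at 0.28 to 0.68 in all 6 pairs of groups. By this measure the numbers pair the libraries, for a reason that was not stated. Replicate 1 was deeper than replicate 2 in each C2C12 group. Reads on genes were 29180000 and 14230000 in control GM and 25900000 and 16370000 in control DM3. They were 29560000 and 18890000 in knockdown GM and 25160000 and 15090000 in knockdown DM3. The part of depth in these correlations was not tested. In muscle the correlations ran from -0.02 to 0.21.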

Additional observations from a re-analysis of the deposited data

Results flagged for a closer look

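Myl9, the smooth muscle regulatory chain, lay higher in both knockdown libraries than in both control libraries in GM (21.0 and 14.5 against 8.07 and 9.98 FPKM) and lower in both at DM3 (31.7 and 41.5 against 73.9 and 89.0 FPKM). It was flagged because the difference of knockdown from control had opposite signs in the 2 stages, without overlap of the libraries in either. The test of the difference itself, the change from GM to DM3 in knockdown minus control cells, gave -2.11 ± 0.37 (SE) on the log2 scale in the limma fit over all genes (adjusted p = 0.27), so the difference did not pass. Groups of 2 libraries were too small for the check of samples that stand apart.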

How the results depend on the processing

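The number of members called stayed within 1.5 times its reported value under the settings tried, apart from those named here. From day 1 to day 3 (7) it was 2 with the Xist term, an alternative chosen after seeing the data, and 3 when a log2 fold change of at least 2 was also asked; from day 3 to day 5 (3) it was 0 under both of these and with no filter on low values; from day 3 to day 10 (8) it was 5 with only the groups compared. With the Xist term 0 of all 16753 genes passed from day 3 to day 5. In control DM3 against GM (3) the member count was 0 with only the groups compared, where 0 of all 13824 genes passed. In knockdown against control at DM3 (2) it was 7 with only the groups compared, where 19.1% of all genes passed, and 1 with the added fold change. Leaving out 1 library gave 7 to 9 members for day 3 against day 0, 2 to 7 against day 1, 0 to 3 for day 5 and 5 to 8 for day 10 against day 3, 0 to 4 for control DM3 against GM and 0 to 4 for knockdown against control at DM3. The replicate block changed no member's call: the counts with the block were 9, 7, 3 and 8 in muscle and 3 and 2 in C2C12, and 0 where they had been 0.

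Quantile normalization turned the log2 fold change of Myl1 to 0.65 (day 3 against day 0), 0.38 (day 3 against day 1) and 0.27 (day 1 against day 0), that of Mylpf to 0.64, 0.18 and 0.46, and that of Myl6 to 0.29 in control DM3 against GM, 0.15 in knockdown DM3 against GM and -0.15 for their difference. The Xist term turned Myl4 to 0.33 and Myl6b to 0.15 on day 1 against day 0. The cause was not tested. By construction, quantile normalization gives the same top values to every library.

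Leaving out 1 library turned the direction of these changes, none of them called. On day 1 against day 0 Myl4 ran from -1.16 to 0.10, Myl6 from -0.0018 to 0.33, Myl6b from -1.34 to 0.17 and Myl9 from -0.87 to 0.16. On day 5 against day 3 Myl3 ran from -2.24 to 0.11, Myl2 from -2.62 to 0.26, Myl9 from -0.066 to 0.51 and Mylk4 from -0.45 to 2.33. On day 10 against day 0 Myl3 ran from -1.39 to 0.26, Myl2 from -0.59 to 0.59 and Myl9 from -0.17 to 0.46. In control DM3 against GM Myl6 ran from -1.19 to 0.57 and Mylk2 from -0.35 to 0.57. In knockdown DM3 against GM Myl1 ran from -3.00 to 2.25, Myl4 from -0.92 to 0.83, Myl6 from -0.37 to 0.35, Myl6b from -0.070 to 0.54, Mylpf from -2.16 to 2.03 and Mylk4 from -0.73 to 0.32. In knockdown against control in GM Myl1 ran from -4.37 to 0.88, Myl4 from -1.15 to 0.59, Myl6 from -1.36 to 0.40, Myl6b from -0.027 to 0.19, Mylpf from -3.67 to 0.52 and Mylk4 from -0.010 to 1.05. For Myl6 the range was -0.44 to 0.070 in knockdown against control at DM3 and -0.58 to 1.18 for the difference of the changes.

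Counted as reads and not per length, the Myl4 share of essential chains on day 3 was 13.1% and the Myl1 share in control DM3 was 12.3%, and with sarcomeric chains alone the latter was 80.4%. The shares per length ran over single libraries from 4.08% to 8.95% and from 16.1% to 18.7%. With 2 libraries a group, a lone library left in a group is assumed to vary like the others. Values under 1 FPKM in C2C12 rest on few reads.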
